A study of Mus musculus with 18 samples.

Results

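BV2 cells, an immortalized mouse microglial line, were compared after 24 h of oxyhemoglobin and without it, in the line labelled NC. Oxyhemoglobin is the oxygen-carrying blood protein that reaches brain tissue when a vessel bleeds. The NC 24 h group has 3 libraries, treated for 24 h at a labelled dose of 10 mM, which is high for a protein and leaves the unit uncertain. The NC control group has 3 libraries labelled as untreated, at 0 h. These 6 of the 18 libraries of the series are the ones with those labels, and all 55487 listed genes were considered. The labels do not spell out NC and do not say how that line was made or whether it is 1 clone. Cells of both groups carried the same label and were plated 12 h before treatment began. An untreated sample at 24 h was not analysed here, so longer culture cannot be told apart from treatment, and endotoxin carried by the oxyhemoglobin was not controlled for. Nothing in the labels says that the 3 libraries of a group grew apart, and the p-values then speak only of the spread among the libraries, which may be technical. A further 3 NC libraries at 12 h, and 3 treated (24 h) and 3 control libraries of a line labelled BAK1-KD, serve below for comparison. These libraries and 3 more of the BAK1-KD line, treated for 12 h, also enter the fit, where they help set the gene filter and the estimate of spread.

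Microglia are the resident macrophages of the brain. They take up hemoglobin and break its heme down with heme oxygenase into iron, carbon monoxide and biliverdin, store the iron in ferritin, and answer the oxidant load through the transcription factor NRF2. Heme and damaged cells can also act on pattern recognition receptors, which signal through NF-kB and MAP kinases to cytokine and chemokine genes. Type I interferon drives a separate set of antiviral genes through STAT2 and IRF9.

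The 6 libraries held 4361313 to 6008810 counts, and 21268 to 22503 genes had at least 1 count in each. The feature CT010467.2 alone received 16.6 to 25.3% of the reads counted, and genes of the mitochondrial genome received 0.833 to 2.05%. On the first principal component of the 6 libraries (38.7% of the variance), the treated libraries scored -33.9 to -40.4 and the controls 35.5 to 39.6. On the second (23.5%), library 2 scored lowest in both groups, at -32.5 in NC 24 h and -36.8 in NC control. Values below are CPM, counts scaled to a common library size, in libraries 1, 2 and 3 of a group, in that order, with library sizes scaled by TMM factors. Changes are log2 fold changes of NC 24 h over NC control ± their standard error, from edgeR's quasi-likelihood test on all 18 libraries, with Benjamini-Hochberg adjusted p over the 15996 genes tested, n = 3 libraries a group. This fit does not pair libraries by their number. A gene is called at an adjusted p under 0.05, and rose or fell is written of called genes.

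Microglia and macrophage markers were present. Of 14 such markers in the file, 13 had counts in these libraries and together they reached 596 to 665 CPM in NC 24 h and 561 to 654 CPM in NC control. Spi1, the myeloid master transcription factor, had 1072, 1020 and 1312 counts in NC 24 h and 1290, 1041 and 832 in control. Some defining markers were sparse. P2ry12, the ADP receptor of resting microglia, had 1 count over NC 24 h and 5 over control, Aif1 had 3 and 4, and Sall1 had 0 in both. The Bak1 transcript, named by the label of the other line, had 1, 0 and 5 counts in NC 24 h and 3, 3 and 0 in control.

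Markers of other cells were near 0. Of 74 markers over all 7 marker lists, 34 had no count in the 6 libraries, among them the 4 globin genes, the pericyte gene Pdgfrb and the neuronal genes Rbfox3 and Snap25. Summed erythroid markers reached 3.87 to 5.84 CPM in NC 24 h and 4.17 to 7.56 CPM in control, and neuron markers 2.53 to 4.23 and 8.78 to 10.1 CPM. Fibroblast and endothelial markers reached 7.18 to 10.4 CPM in NC 24 h and 1.81 to 2.65 CPM in control. The endothelial growth factor receptor Kdr was 1 of them and rose (log2 fold change 2.85 ± 0.52, adjusted p = 0.000888), whereas the neuronal enzyme Gad1 fell (log2 fold change -1.90 ± 0.44, adjusted p = 0.00668). Astrocyte markers reached 8.47 to 13.7 CPM in NC 24 h and 10.2 to 13.7 CPM in control. Oligodendrocyte markers reached 4.05 to 9.88 CPM in NC 24 h and 5.63 to 9.24 CPM in control. Lymphocyte and granulocyte markers reached 1.84 to 3.29 CPM in NC 24 h and 3.13 to 5.72 CPM in control.

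After 24 h, 1211 genes were called, 7.57% of those tested. Of these, 745 rose (4.66%) and 466 fell (2.91%), and the median of all genes tested was 0.0015 on the log2 scale. Counts of called members in the gene lists below are to be read against these shares. The larger changes were increases. At 4-fold or more, 165 genes rose and 47 fell, and at 16-fold or more 39 rose and 1 fell. The 3 treated and 3 control CPM values did not overlap in 1193 of the 1211 called genes, and in 21.4% of all genes tested. Remarks below that the groups of a called gene lie apart therefore describe its values and add no support to its call. Same-numbered libraries of the 2 groups deviated together, and with the number as a block 3023 genes were called, 1696 higher and 1327 lower, holding 1209 of the 1211. Calls numbered 748 when only these 6 libraries were fitted and 802 without the 6 libraries numbered 2. Without NC control 3, 488 genes rose. On log2(TPM + 1), a scale per transcript length and not TMM-scaled, limma called 854 genes, of which 42.7% were higher, where the edgeR fit has 61.5%, and of 197 named genes called here and fitted there 158 were called with limma. On log2(TPM + 0.1) it put the median of all genes at -0.11.

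**Figure D1:**
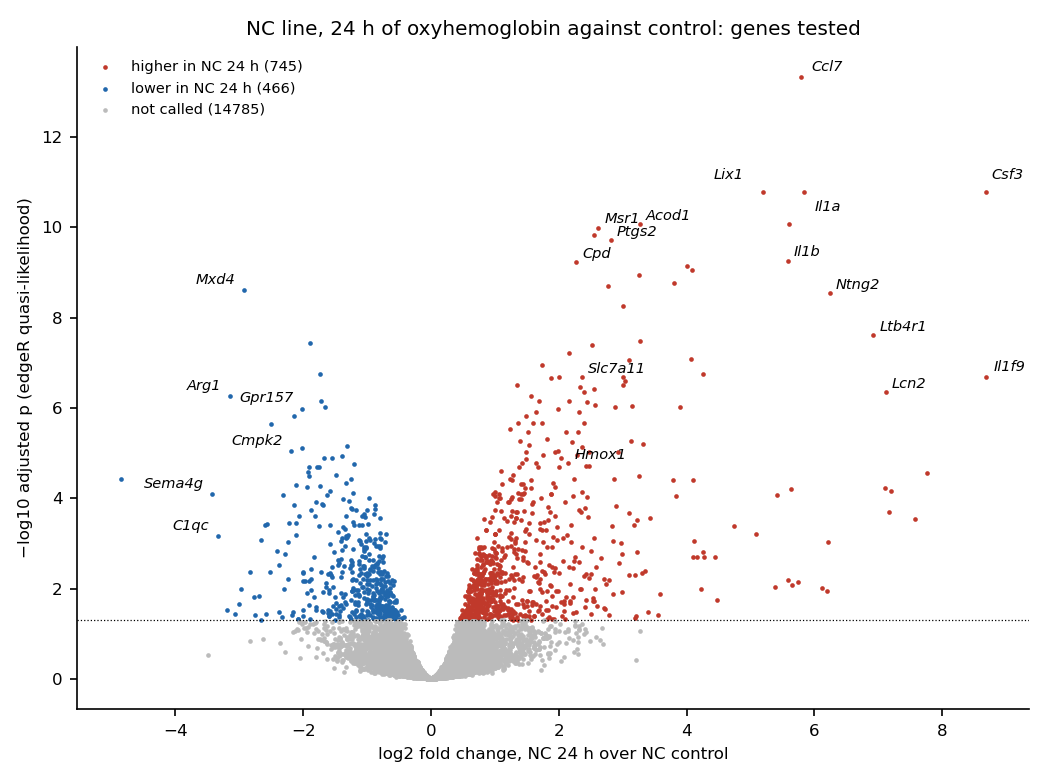
Each point is 1 of the 15996 genes tested, with its log2 fold change (NC 24 h over NC control) on the horizontal axis and −log10 of its adjusted p on the vertical axis. Red points are the 745 genes that rose, blue points the 466 that fell, and the dotted line marks an adjusted p of 0.05. The increases reach further from 0 than the decreases.

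The largest increases are given first. Csf3 (ENSMUSG00000038067, chromosome 11, 98701263 to 98703629, plus strand) encodes granulocyte colony-stimulating factor and had 1427, 763 and 845 CPM in NC 24 h, against 2.30, 3.63 and 1.23 CPM in control (log2 fold change 8.68 ± 0.42, adjusted p = 1.65e-11). Lcn2 (ENSMUSG00000026822, chromosome 2, 32384633 to 32388252, minus strand), lipocalin 2, binds bacterial siderophores and had 141, 78.0 and 110.3 CPM against 1.04, 0.495 and 0.817 CPM in control (log2 fold change 7.12 ± 0.61, adjusted p = 4.50e-07). Every treated library exceeded every control library for both genes, as the choice of the largest increases required. Ltb4r1 (ENSMUSG00000046908, chromosome 14, 55765962 to 55768494, plus strand) encodes the leukotriene B4 receptor and had 154 counts over the 3 treated libraries against 1 over the controls. Relative to the TMM-scaled library sizes this is 165 times as many (exact 95% interval 29.2 to 6564, counting error only).

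Among the other large increases, Ntng2, the membrane-anchored netrin-G2, had 62.3, 50.5 and 37.2 CPM in NC 24 h and 0.209, 0.495 and 1.23 CPM in control (log2 fold change 6.24 ± 0.46, adjusted p = 2.85e-09). The neighbouring transcript 6530402F18Rik, which shares 10.1% of its exon bases with Ntng2 on the same strand, had 331, 206 and 269 CPM in NC 24 h and 18.8, 15.2 and 13.5 CPM in control (4.09 ± 0.28). Neither overlapped between the groups, as the choice of the largest increases required. The growth-promoting kinase Pim2 had 197, 161 and 213 CPM in NC 24 h and 17.3, 8.41 and 10.01 CPM in control (4.01 ± 0.27). Lix1 had 42.8, 44.4 and 47.1 CPM in NC 24 h and 0.835, 1.65 and 1.02 CPM in control (5.197 ± 0.27), with nearly equal values among the treated libraries. The tyrosine phosphatase Ptpn14 (4.25 ± 0.40) and the processed pseudogene Gm19026 (5.597 ± 0.33) rose as well. Olfr129, an olfactory receptor gene, had 10.9, 18.1 and 5.71 CPM in NC 24 h and 1.46, 0.165 and 0.204 CPM in control (log2 fold change 4.27 ± 0.80, adjusted p = 0.00203), with library 2 highest among the treated. The 15 largest increases kept their call in each of the 6 fits that left out 1 of the 6 libraries.

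**Figure D2:**
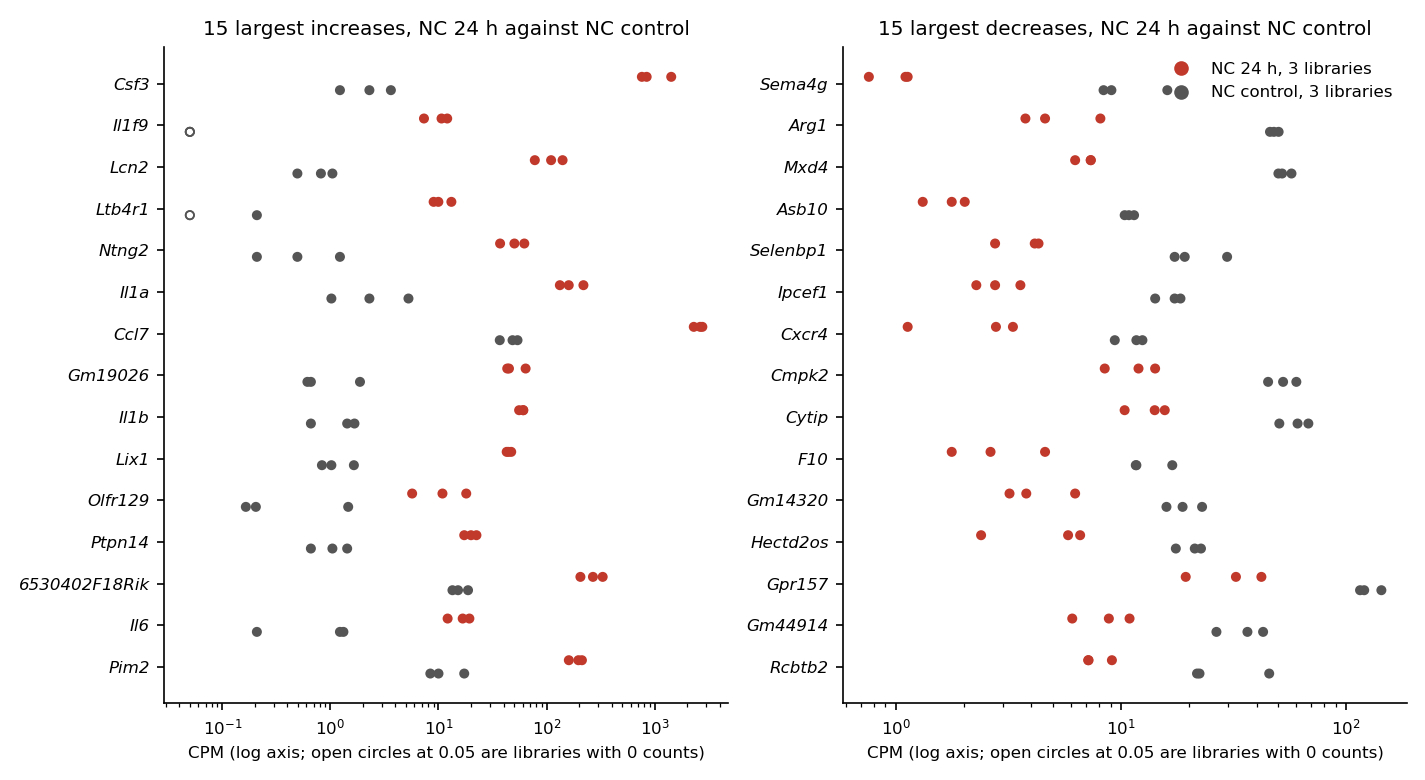
CPM of the 15 genes with the largest increase (left) and the 15 with the largest decrease (right) among called genes that do not overlap and reach a mean of 10 CPM in the higher group, on log axes. Red points are the 3 NC 24 h libraries, to the right of grey in the left panel and to the left of grey in the right panel, grey points the 3 NC control libraries, and open circles libraries without a count. By this choice, no red point overlaps a grey point of the same gene.

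Of the IL-1 family, 5 of 8 tested members rose and none fell, with a list median of 2.26 on the log2 scale. Among the ligands, Il1a, a cytokine and alarmin, had 133, 161 and 219.7 CPM in NC 24 h and 2.30, 5.28 and 1.02 CPM in control. Il1b, the pyrogen that caspase-1 processes, had 60.8, 61.01 and 55.8 CPM in NC 24 h and 1.67, 0.660 and 1.43 CPM in control. The groups lay far apart in both genes, and the 3 treated values of Il1b were nearly the same. Il1f9, interleukin-36 gamma, had 7.35, 12.1 and 10.7 CPM in NC 24 h and no count in control, at least 54.0-fold higher with 3 counts over the control group as the floor. The natural antagonist rose too, since Il1rn, which blocks the IL-1 receptor, had 38.5, 59.5 and 65.7 CPM in NC 24 h and 2.92, 4.95 and 3.68 CPM in control (log2 fold change 3.80 ± 0.27, adjusted p = 1.68e-09). Il18rap, a subunit of the IL-18 receptor, had 45.8, 63.3 and 72.0 CPM in NC 24 h and 39.4, 35.0 and 36.3 CPM in control (log2 fold change 0.71 ± 0.17, adjusted p = 0.00764), called in 5 of the 6 fits without 1 library, with adjusted p up to 0.0776 without NC 24 h 3.

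Among interleukins of the IL-6 family and others, 3 of 8 rose and 2 fell (median 0.81). Il6, which acts on liver and lymphocytes in the acute phase, had 12.2, 16.8 and 19.3 CPM in NC 24 h and 0.209, 1.32 and 1.23 CPM in control. Ebi3, the shared subunit of IL-27 and IL-35, had 79.8, 80.4 and 113 CPM in NC 24 h and 28.8, 18.3 and 16.3 CPM in control (log2 fold change 2.11 ± 0.24, adjusted p = 3.33e-06). Osm, oncostatin M, had 199.8, 169 and 183 CPM in NC 24 h and 123, 79.2 and 106 CPM in control (log2 fold change 0.84 ± 0.18, adjusted p = 0.00374). All 3 genes separated the groups. In the other direction, Il15, which sustains natural killer cells, had 1.01, 2.82 and 3.87 CPM in NC 24 h and 10.4, 12.7 and 6.33 CPM in control (log2 fold change -1.88 ± 0.40, adjusted p = 0.00375). Il4 fell as well (log2 fold change -0.91 ± 0.26, adjusted p = 0.0303), called in 2 of the 6 fits without 1 library, with adjusted p up to 0.119 without NC 24 h 2.

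Colony-stimulating and growth factors moved both ways, with 4 of 15 higher and 3 lower (median -0.09), and 2 higher in the fit without NC control 2. Beside Csf3, the EGF receptor ligand Hbegf had 61.8, 41.4 and 56.7 CPM in NC 24 h and 20.7, 20.8 and 15.3 CPM in control (log2 fold change 1.49 ± 0.19, adjusted p = 1.33e-05). Csf1, the survival factor of macrophages themselves, fell, with 27.1, 16.9 and 21.2 CPM in NC 24 h and 40.1, 42.9 and 39.2 CPM in control (log2 fold change -0.91 ± 0.20, adjusted p = 0.00403). Igf1, a trophic factor that microglia supply, had 28.9, 45.6 and 49.9 CPM in NC 24 h and 91.6, 164 and 151 CPM in control, and library 1 was the lowest of each group. The angiogenic factor Vegfa also fell (log2 fold change -1.24 ± 0.30, adjusted p = 0.0113), called in 4 of the 6 fits without 1 library, with adjusted p up to 0.0663 without NC control 1.

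Of 8 tested CC chemokines, 6 rose and none fell, in each of the 6 fits without 1 library, and the list median was 2.72. Ccl7 (ENSMUSG00000035373, chromosome 11, 82045712 to 82047525, plus strand) had 2641, 2307 and 2769 CPM in NC 24 h and 36.9, 48.5 and 53.9 CPM in control. Ccl2, the main ligand of the monocyte receptor CCR2, had 119, 85.7 and 111 CPM in NC 24 h and 12.9, 11.2 and 18.6 CPM in control (log2 fold change 2.89 ± 0.30, adjusted p = 9.55e-07). Further chemokines moved alike. Ccl3 had 1711, 2153 and 2924 CPM in NC 24 h and 188, 256 and 265 CPM in control (log2 fold change 3.26 ± 0.23, adjusted p = 1.15e-09), and Ccl4 had 658, 800.4 and 828 CPM in NC 24 h and 129, 115 and 145 CPM in control (log2 fold change 2.55 ± 0.16, adjusted p = 1.46e-10). Ccl5, which attracts T cells and monocytes, rose to 15.4, 22.2 and 13.4 CPM in NC 24 h, against 3.34, 5.28 and 4.49 CPM in control. Ccl9, a macrophage-made chemokine of rodents, had 399, 471 and 760.3 CPM in NC 24 h and 117, 125 and 184 CPM in control (log2 fold change 1.94 ± 0.24, adjusted p = 9.23e-06). Ccl6 was not called (log2 fold change 0.36 ± 0.17, adjusted p = 0.259).

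Only 4 of the 14 CXC and CX3C chemokines had enough counts to be tested, and Cxcl2, which attracts neutrophils, was the 1 that rose. It had 131 counts in NC 24 h and 3 in control, a ratio of count rates of 46.8 (exact 95% interval 15.7 to 230.0). Cxcl10, the interferon-induced T cell attractant, had means of 3.47 CPM in NC 24 h and 2.17 CPM in control and was not called (log2 fold change 0.66 ± 0.46, adjusted p = 0.487).

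In the TNF superfamily, 7 of 19 members rose and 1 fell (median 0.20, but -0.01 on log2(TPM + 1)), and 4 fell with the number as a block. Among the ligands, Tnf had 16.5, 21.1 and 21.2 CPM in NC 24 h and 1.25, 2.47 and 2.86 CPM in control, and Lta, lymphotoxin alpha, had 11.7, 8.47 and 10.9 CPM in NC 24 h and 1.04, 1.15 and 0.817 CPM in control (log2 fold change 3.31 ± 0.40, adjusted p = 6.31e-06). Tnfsf13b, the B cell survival factor BAFF, fell to 0.760, 4.90 and 5.71 CPM in NC 24 h, against 13.98, 10.9 and 11.03 CPM in control (log2 fold change -1.59 ± 0.39, adjusted p = 0.0108). Among the receptors, Tnfrsf1b, which binds TNF, had 1114, 959.7 and 1177 CPM in NC 24 h and 598, 449 and 466 CPM in control (log2 fold change 1.10 ± 0.17, adjusted p = 0.000195). Cd40, the costimulatory receptor, had 19.2, 13.6 and 9.39 CPM in NC 24 h and 4.80, 6.93 and 3.47 CPM in control (log2 fold change 1.44 ± 0.29, adjusted p = 0.00203). Tnfrsf21, death receptor 6, rose by a similar amount (1.33 ± 0.22).

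Receptors for cytokines changed in both directions. Of 22 cytokine and growth factor receptors, 4 fell and 2 rose (median -0.19), and 8 fell and 5 rose with the number as a block, while 1 rose without NC 24 h 3. Il6ra, the IL-6 receptor, had 25.6, 47.1 and 27.4 CPM in NC 24 h and 109, 141 and 86.2 CPM in control (log2 fold change -1.74 ± 0.25, adjusted p = 5.30e-05). Csf1r, the receptor through which CSF1 maintains microglia, had 3.29, 3.01 and 3.68 CPM in NC 24 h and 10.4, 8.74 and 11.03 CPM in control (log2 fold change -1.58 ± 0.29, adjusted p = 0.00101). Both were lower in every treated library. In the other direction, Met, the hepatocyte growth factor receptor, had 21.02, 28.8 and 28.2 CPM in NC 24 h and 4.38, 13.4 and 8.78 CPM in control (log2 fold change 1.54 ± 0.27, adjusted p = 0.000632).

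Chemoattractant receptors were higher in 4 of 10 cases and lower in 1 (median 0.77). The formyl peptide receptor Fpr1 had 50 counts in NC 24 h and none in control, at least 17.9-fold higher. Cxcr3, the receptor of CXCL10, had 14.9, 9.79 and 13.6 CPM in NC 24 h and 3.96, 3.30 and 3.27 CPM in control (log2 fold change 1.86 ± 0.29, adjusted p = 0.000197), and C3ar1, the receptor of complement C3a, had 313, 365 and 521 CPM in NC 24 h and 247, 244 and 259.5 CPM in control (log2 fold change 0.67 ± 0.16, adjusted p = 0.0108), called in 5 of the 6 fits without 1 library, with adjusted p up to 0.120 without NC 24 h 3. Cxcr4, the CXCL12 receptor, fell to 2.79, 1.13 and 3.31 CPM in NC 24 h, against 9.39, 11.7 and 12.5 CPM in control (log2 fold change -2.21 ± 0.37, adjusted p = 0.000351).

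Pattern recognition receptors and their adaptors showed 3 increases and 2 decreases among 22 (median -0.03), or 5 and 4 with the number as a block. Cd14, the endotoxin co-receptor of TLR4, had 639.8, 641 and 629 CPM in NC 24 h and 306, 319 and 269.5 CPM in control (log2 fold change 1.09 ± 0.15, adjusted p = 2.46e-05), with hardly any spread within the treated group. Tlr9, which senses DNA, also rose (log2 fold change 0.68 ± 0.16, adjusted p = 0.00830). The adaptors Ticam2 (log2 fold change -0.75 ± 0.17, adjusted p = 0.00616) and Traf6 (log2 fold change -0.78 ± 0.18, adjusted p = 0.00616), which carry signals from these receptors, fell. Among 8 C-type lectins and Siglecs 2 rose and 1 fell (median 0.15). The inhibitory Siglece rose (3.25 ± 0.44) and the mannose receptor Mrc1 fell, with 1.77, 0.941 and 4.05 CPM in NC 24 h and 7.72, 8.91 and 11.2 CPM in control (log2 fold change -2.01 ± 0.43, adjusted p = 0.00433).

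Genes of the NF-kB pathway rose where they changed. Of 22 subunits, inhibitors and feedback genes, 8 rose and none fell (median 0.41), and 7 to 8 rose in the fits without 1 library. With only these 6 libraries fitted 6 rose, with the number as a block 10, and on log2(TPM + 1) 4 of 18. Nfkbia (ENSMUSG00000021025, chromosome 12, 55489410 to 55492647, minus strand), which encodes the inhibitor that retains NF-kB in the cytoplasm and is itself an NF-kB target, had 236, 175 and 234 CPM in NC 24 h and 33.2, 41.2 and 38.2 CPM in control (log2 fold change 2.51 ± 0.22, adjusted p = 4.10e-08). Zc3h12a, an RNase that degrades cytokine transcripts, had 147, 114 and 148 CPM in NC 24 h and 47.8, 30.5 and 43.7 CPM in control (log2 fold change 1.75 ± 0.22, adjusted p = 1.12e-05). The treated libraries were above all controls for both. The signalling adaptor Traf1 rose (2.47 ± 0.32), as did the subunit Nfkb1, with 73.5, 74.6 and 61.1 CPM in NC 24 h and 36.3, 38.9 and 39.4 CPM in control (log2 fold change 0.87 ± 0.15, adjusted p = 0.000498). Tnfaip3, which encodes the feedback inhibitor A20, was not called (log2 fold change 0.39 ± 0.24, adjusted p = 0.411).

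In the MAP kinase feedback and immediate early list, 6 of 18 rose and none fell (median 0.49), or 11 of 18 with the number as a block. Fosl1, an AP-1 subunit, had 5.57, 3.77 and 4.97 CPM in NC 24 h and 0.626, 0.165 and 0.204 CPM in control (log2 fold change 3.79 ± 0.52, adjusted p = 3.92e-05). Junb, another AP-1 subunit, had 861, 576 and 660.1 CPM in NC 24 h and 441, 316 and 342 CPM in control (log2 fold change 0.93 ± 0.21, adjusted p = 0.00674). The MAP kinase phosphatases Dusp5 (log2 fold change 1.19 ± 0.22, adjusted p = 0.00118) and Dusp2 (log2 fold change 1.06 ± 0.20, adjusted p = 0.00112) rose with them.

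Promoters of the genes tested were searched for short binding motifs, and 6 are shown because they hold the motif of the pathway that their gene belongs to. RefSeq (GRCm38.p6) gave a 300 base window, 250 bases before and 50 after the transcription start, for 9400 of the 15992 symbols tested. The first 3 windows belong to the NF-kB targets Il6 (chr5:30012864-30013163, plus strand), Cxcl2 (chr5:90903649-90903948, plus strand) and Nfkbia (chr12:55492598-55492897, minus strand). Capitals mark the NF-kB motif GGGANTTTC, on either strand. Nfkbia holds 2 matches.
Il6: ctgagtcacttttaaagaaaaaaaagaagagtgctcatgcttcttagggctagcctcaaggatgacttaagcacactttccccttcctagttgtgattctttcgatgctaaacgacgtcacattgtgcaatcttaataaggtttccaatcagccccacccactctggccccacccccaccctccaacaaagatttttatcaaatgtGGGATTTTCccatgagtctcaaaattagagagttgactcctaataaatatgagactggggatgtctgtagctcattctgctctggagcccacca
Cxcl2: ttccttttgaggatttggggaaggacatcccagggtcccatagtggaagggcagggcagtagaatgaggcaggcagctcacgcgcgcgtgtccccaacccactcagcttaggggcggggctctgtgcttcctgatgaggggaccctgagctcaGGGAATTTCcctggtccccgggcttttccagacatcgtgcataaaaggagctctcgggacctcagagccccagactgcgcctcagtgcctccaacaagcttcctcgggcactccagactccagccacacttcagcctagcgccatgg
Nfkbia: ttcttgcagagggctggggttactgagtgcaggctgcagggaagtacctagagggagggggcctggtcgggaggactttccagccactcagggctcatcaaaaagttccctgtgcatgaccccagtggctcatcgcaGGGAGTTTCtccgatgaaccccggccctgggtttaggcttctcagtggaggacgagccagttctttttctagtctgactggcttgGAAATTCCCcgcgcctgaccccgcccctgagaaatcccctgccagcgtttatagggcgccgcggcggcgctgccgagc
The next 2 belong to antioxidant genes described below, the sulfiredoxin gene Srxn1 (chr2:152105274-152105573, plus strand) and the peroxiredoxin gene Prdx1 (chr4:116685349-116685648, plus strand). Capitals mark the antioxidant response element core TGANNCAGC, whose first 7 letters, as in both windows, can also match the AP-1 motif TGANTCA.
Srxn1: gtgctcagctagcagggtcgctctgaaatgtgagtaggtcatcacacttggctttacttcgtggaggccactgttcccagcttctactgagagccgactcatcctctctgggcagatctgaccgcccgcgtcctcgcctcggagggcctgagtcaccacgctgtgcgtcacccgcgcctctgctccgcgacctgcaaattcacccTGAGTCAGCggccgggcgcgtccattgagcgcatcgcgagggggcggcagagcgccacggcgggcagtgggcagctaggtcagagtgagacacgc
Prdx1: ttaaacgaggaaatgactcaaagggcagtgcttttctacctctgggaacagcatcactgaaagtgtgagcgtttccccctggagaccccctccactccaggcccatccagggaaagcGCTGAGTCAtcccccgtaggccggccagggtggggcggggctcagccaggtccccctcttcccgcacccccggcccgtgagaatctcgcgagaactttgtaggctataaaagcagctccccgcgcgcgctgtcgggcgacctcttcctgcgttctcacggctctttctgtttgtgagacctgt
The last belongs to the interferon signalling gene Stat2 (chr10:128270248-128270547, plus strand), and capitals mark the interferon-stimulated response element core GAAANNGAA.
Stat2: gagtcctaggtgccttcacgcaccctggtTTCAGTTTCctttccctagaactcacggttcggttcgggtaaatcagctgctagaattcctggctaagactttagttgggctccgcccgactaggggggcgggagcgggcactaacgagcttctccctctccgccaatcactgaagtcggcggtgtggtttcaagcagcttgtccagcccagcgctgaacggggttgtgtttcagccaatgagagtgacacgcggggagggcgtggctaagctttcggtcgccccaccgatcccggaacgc
A match is a description of these letters and not a bound site. Of the 495 windows of genes that rose, 7 held the 9-letter NF-kB motif (1.41%), against 2 of 314 for genes that fell (0.637%), 0.931% of those not called and 1.15% of all RefSeq windows. The share in genes that rose was thus close to that of all windows. With 1 more C at its end, a form searched first, 4 windows of genes that rose held it (0.808%), 2 of genes that fell, 0.314% of those not called and 0.385% of all RefSeq windows, so the comparison depends on the letters chosen. The AP-1 motif was held by 10.7% of windows of genes that rose, 7.64% of those that fell, 4.84% of those not called and 7.93% of all RefSeq windows. For the antioxidant core the shares were 6.06, 4.14, 4.49 and 5.07% in the same order, and for the interferon core 9.49, 10.2, 6.97 and 8.57%, or 4.44, 5.10, 3.03 and 3.49% with 1 more A. The cyclic AMP element TGACGTCA had 4.04, 2.23, 3.38 and 1.88%, and the C/EBP motif TTGCNNAA 11.9, 10.51, 7.997 and 10.75%. Both strands were searched, and genes with several windows entered with the first listed.

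Enzymes that make inflammatory lipids rose as a pair. Ptgs2, cyclooxygenase 2, had 399, 433 and 536 CPM in NC 24 h and 52.4, 78.8 and 63.5 CPM in control, and Ptges, which converts its product into prostaglandin E2, had 135, 101 and 116 CPM in NC 24 h and 20.2, 13.9 and 17.6 CPM in control (log2 fold change 2.77 ± 0.20, adjusted p = 1.95e-09). No control library reached a treated one in either gene. These were the 2 called members of 18 in the eicosanoid list (median 0.10, but -0.04 on log2(TPM + 1)).

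Genes of arginine, nitric oxide and itaconate metabolism showed large changes in both directions, with 3 of 14 higher and 1 lower (median 0.28), or 6 and 1 with the number as a block. Acod1 (ENSMUSG00000022126, chromosome 14, 103046977 to 103056573, plus strand), the enzyme that makes the antimicrobial metabolite itaconate, had 3385, 3214 and 4214 CPM in NC 24 h and 432, 324 and 366 CPM in control (log2 fold change 3.27 ± 0.19, adjusted p = 8.65e-11). By CPM gained, which also depends on transcript length, it was the gene with the largest increase. Nos2, inducible nitric oxide synthase, had 58.5, 91.9 and 116 CPM in NC 24 h and 13.98, 10.6 and 8.58 CPM in control. Arg1, the arginase that competes with NOS2 for arginine, fell to 8.10, 3.77 and 4.60 CPM in NC 24 h, against 45.9, 50.1 and 47.8 CPM in control (log2 fold change -3.15 ± 0.32, adjusted p = 5.52e-07). Odc1, which makes the first polyamine from ornithine, had 361, 314 and 482 CPM in NC 24 h and 70.3, 59.2 and 84.1 CPM in control (log2 fold change 2.44 ± 0.25, adjusted p = 7.55e-07). The groups did not overlap in any of these 4 genes.

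Heme breakdown and iron handling genes rose in 7 of 26 cases and none fell (median 0.25), and 5 to 7 rose in the fits without 1 library. With the number as a block 9 rose and 2 fell, and with DESeq2 7 rose and 1 fell. Heme oxygenase 1, Hmox1, had 1851, 1492 and 2649 CPM in NC 24 h and 609, 340.4 and 401 CPM in control. Blvrb, a biliverdin reductase that acts downstream of it, had 30.9, 15.8 and 27.3 CPM in NC 24 h and 6.47, 5.61 and 9.80 CPM in control (log2 fold change 1.76 ± 0.32, adjusted p = 0.000928). The heme transporter Slc48a1, which moves heme out of endolysosomes, had 98.3, 90.0 and 155 CPM in NC 24 h and 66.1, 53.6 and 50.2 CPM in control (log2 fold change 1.01 ± 0.20, adjusted p = 0.00159). Groups were separate for all 3. The constitutive oxygenase Hmox2 was sparse and not called (log2 fold change -0.48 ± 0.42, adjusted p = 0.607).

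Iron import and storage genes took part. Slc11a2, the iron transporter DMT1, had 248, 170.0 and 232 CPM in NC 24 h and 53.6, 38.1 and 54.5 CPM in control (log2 fold change 2.15 ± 0.22, adjusted p = 7.10e-07). Fth1, the ferritin heavy chain, which has many processed pseudogenes that may share reads, had 2914, 1999 and 3578 CPM in NC 24 h and 1254, 1037 and 1604 CPM in control (log2 fold change 1.12 ± 0.30, adjusted p = 0.0241), called in 2 of the 6 fits without 1 library, with adjusted p up to 0.131 without NC 24 h 3. Library 2 was the lowest of both groups. Tfrc, the transferrin receptor, rose (log2 fold change 0.90 ± 0.22, adjusted p = 0.0126), called in 3 of the 6 fits without 1 library, with adjusted p up to 0.117 without NC 24 h 3. The iron exporter Slc40a1 had 163, 192 and 173 CPM in NC 24 h and 111, 143 and 155 CPM in control and was not called (log2 fold change 0.37 ± 0.16, adjusted p = 0.200). Alas1, which starts heme synthesis, had 50.9, 33.9 and 35.5 CPM in NC 24 h and 13.8, 9.57 and 13.1 CPM in control (log2 fold change 1.72 ± 0.26, adjusted p = 9.95e-05), and the heme-sensing repressor Bach1 was not called (log2 fold change -0.35 ± 0.13, adjusted p = 0.107).

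NRF2 and glutathione genes rose in 11 of 31 cases and none fell (median 0.48), with 9 to 11 rising in the fits without 1 library and 7 of 29 on log2(TPM + 1). Slc7a11, which imports cystine for glutathione synthesis, had 1216, 1663 and 1708 CPM in NC 24 h and 221, 336 and 334 CPM in control. Gsr, which regenerates reduced glutathione, had 419, 350.0 and 548 CPM in NC 24 h and 168, 142 and 124 CPM in control (log2 fold change 1.60 ± 0.18, adjusted p = 2.12e-06). Treated libraries lay above every control for both. Prdx1, a peroxidase, had 1136, 1391 and 1602 CPM in NC 24 h and 625, 504 and 443 CPM in control (log2 fold change 1.39 ± 0.17, adjusted p = 5.25e-06), and Srxn1, which repairs such peroxidases, had 478, 393 and 586 CPM in NC 24 h and 216, 149 and 183 CPM in control (log2 fold change 1.41 ± 0.21, adjusted p = 8.05e-05). Catalase, Cat, had 205, 186 and 348 CPM in NC 24 h and 109, 78.3 and 107 CPM in control (log2 fold change 1.33 ± 0.22, adjusted p = 0.000268). The NADPH source G6pdx (1.06 ± 0.22), thioredoxin reductase Txnrd1 (0.72 ± 0.14) and the glutathione conjugate exporter Abcc1 (0.65 ± 0.14) rose by smaller amounts. Sod2, mitochondrial superoxide dismutase, was called (log2 fold change 0.74 ± 0.17, adjusted p = 0.00649) in 4 of the 6 fits without 1 library, with adjusted p up to 0.0651 without NC 24 h 3.

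In the list of metallothioneins and zinc transporters, 4 of 11 genes rose and none fell (median 0.26). With the number as a block 6 rose and 1 fell, while 1 rose without NC control 2 and 2 with only these 6 libraries fitted. The 4 called genes were the zinc transporters Slc39a4, Slc39a14, Slc39a10 and Slc30a4. No metallothionein was called, with Mt1 at a log2 fold change of 0.64 (adjusted p = 0.0897). The zinc importer Slc39a14 had 258, 208 and 271 CPM in NC 24 h and 152, 128 and 171 CPM in control (log2 fold change 0.71 ± 0.17, adjusted p = 0.00858), called in 5 of the 6 fits without 1 library, with adjusted p up to 0.0552 without NC control 2.

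Of 27 ATF4 targets and tRNA synthetases none rose and 2 fell (median -0.06), or 5 with the number as a block, and 1 rose without the libraries numbered 2. Ddit4 alone fell without NC 24 h 2, NC 24 h 3, NC control 1 or NC control 3. It encodes an inhibitor of mTOR signalling. Ddit4 fell to 169, 109 and 101 CPM in NC 24 h, against 467, 309 and 355 CPM in control (log2 fold change -1.58 ± 0.23, adjusted p = 6.74e-05), and Trib3, a pseudokinase induced by ATF4, fell to 323, 189 and 246 CPM, against 507, 352 and 469 CPM in control (log2 fold change -0.81 ± 0.24, adjusted p = 0.0367), called in 2 of the 6 fits without 1 library, with adjusted p up to 0.135 without NC 24 h 2. No serine or one-carbon enzyme of 15 was called (median -0.06), while 1 rose and 4 fell with the number as a block.

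ER chaperones and genes of the unfolded protein response rose in 5 of 22 cases (median 0.35), 9 rose and 2 fell with the number as a block, and 2 rose without NC 24 h 3 and 3 with only these 6 libraries fitted. Sdf2l1 had 231, 195 and 245 CPM in NC 24 h and 155, 93.2 and 109 CPM in control (log2 fold change 0.91 ± 0.19, adjusted p = 0.00263). Cytosolic and mitochondrial heat shock genes rose in 3 of 17 cases (median 0.20), 7 with the number as a block, and 1 with only these 6 libraries fitted, without NC 24 h 3 or without NC control 3. Hsp90aa1, the inducible HSP90, had 87.1, 76.4 and 79.2 CPM in NC 24 h and 52.8, 42.7 and 49.8 CPM in control (log2 fold change 0.74 ± 0.17, adjusted p = 0.00617). Of 16 p53 targets 3 rose (median 0.24), or 7 with the number as a block, led by the kinase Plk2 with 393, 406 and 514 CPM in NC 24 h and 161, 182 and 168 CPM in control (log2 fold change 1.36 ± 0.15, adjusted p = 2.14e-06). The cell cycle inhibitor Cdkn1a was not called (log2 fold change -0.50 ± 0.50, adjusted p = 0.670).

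Sterol synthesis and uptake genes rose in 4 of 21 cases and none fell (median 0.44). With the number as a block 11 rose, with only these 6 libraries fitted 2 rose, and without NC 24 h 3 also 2. Hsd17b7 had 21.02, 27.9 and 30.4 CPM in NC 24 h and 6.05, 8.91 and 7.35 CPM in control (log2 fold change 1.82 ± 0.22, adjusted p = 4.82e-06), and Msmo1 had 40.0, 47.6 and 58.4 CPM in NC 24 h and 14.8, 19.6 and 19.6 CPM in control (log2 fold change 1.43 ± 0.20, adjusted p = 4.72e-05). Both encode enzymes late in cholesterol synthesis and separated the groups.

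Among fatty acid, LXR target and lipid handling genes 5 of 28 fell and 2 rose (median -0.01), and 1 rose without NC 24 h 3 or with only these 6 libraries fitted. The cholesterol exporters fell together. Abca1 had 429, 434 and 430.3 CPM in NC 24 h and 714, 722 and 672 CPM in control (log2 fold change -0.71 ± 0.12, adjusted p = 0.000620), and Abcg1 had 254, 219 and 289 CPM in NC 24 h and 480.0, 379 and 453 CPM in control (log2 fold change -0.78 ± 0.17, adjusted p = 0.00436). Treated values of Abca1 were almost equal. Apoe, a lipid carrier, had 4.56, 4.14 and 6.26 CPM in NC 24 h and 16.1, 15.998 and 12.9 CPM in control, and Soat1, which stores cholesterol as ester, fell as well (log2 fold change -0.80 ± 0.15, adjusted p = 0.00124). Cpt1a, which admits fatty acids to mitochondria, had 9.62, 9.79 and 19.3 CPM in NC 24 h and 51.8, 36.8 and 43.1 CPM in control (log2 fold change -1.75 ± 0.23, adjusted p = 2.02e-05). The fatty acid binding protein Fabp4 rose (log2 fold change 1.07 ± 0.16, adjusted p = 9.64e-05).

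Glycolysis and hypoxia genes fell in 6 of 32 cases and rose in 2 (median -0.26), or 12 and 4 with the number as a block. Of all genes tested, 2.91% fell and 4.66% rose, so the 2 increases are near the share of all genes. Neither increase was called without NC 24 h 2 or without any 1 of the controls, nor with only these 6 libraries fitted. Ndrg1, induced by hypoxia, had 432, 298 and 463 CPM in NC 24 h and 1158, 771 and 1151 CPM in control (log2 fold change -1.37 ± 0.23, adjusted p = 0.000430). Pfkp, a phosphofructokinase, had 229, 244 and 259 CPM in NC 24 h and 442, 381 and 447 CPM in control (log2 fold change -0.79 ± 0.13, adjusted p = 0.000269), and Pdk1, which keeps pyruvate from the mitochondria, had 56.0, 58.6 and 69.0 CPM in NC 24 h and 105, 106 and 115 CPM in control (log2 fold change -0.83 ± 0.15, adjusted p = 0.00115). Every treated library was below every control in these 3 genes. Of 29 nuclear respiratory chain subunits 1 fell (median 0.02, but -0.11 on log2(TPM + 1)), and no mitochondrially encoded gene of 9 was called (median 0.50). With the number as a block 3 of the nuclear subunits rose and 2 fell and 1 mitochondrial gene rose, and with only these 6 libraries fitted no gene of either list was called.

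**Figure D3:**
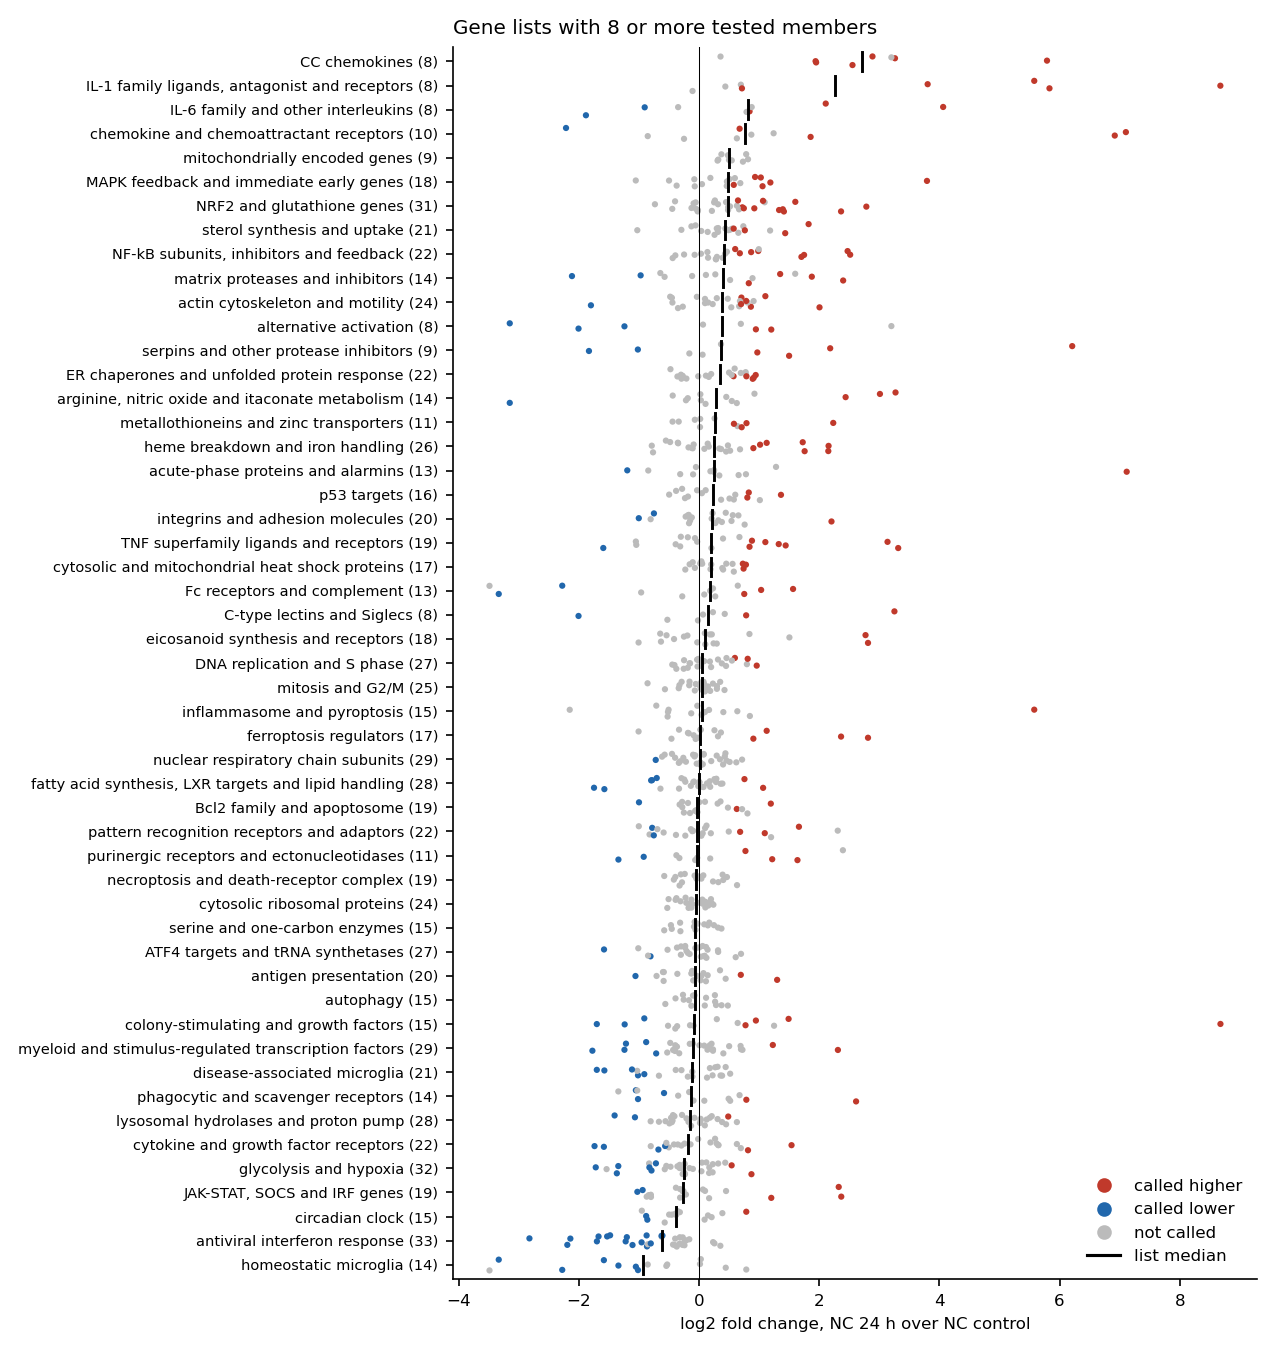
Log2 fold change (NC 24 h over NC control) of every tested member of the lists with 8 or more tested members, ordered by the list median, with the number tested in brackets. Red and blue points were called higher and lower, grey points were not called, and black bars are list medians. CC chemokines and the IL-1 family stand at the top and the antiviral and homeostatic microglia lists at the bottom.

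Antiviral interferon genes lay below control after 24 h. Of 33 tested, 16 fell and none rose (median -0.62), with 13 to 15 falling in the fits without 1 library and 15 of 29 on log2(TPM + 1). The CPM values of the groups did not overlap, with the treated lower, in 19 of the 33, against 10.2% of all genes. Cmpk2, a mitochondrial nucleotide kinase, had 14.2, 8.47 and 11.97 CPM in NC 24 h and 60.1, 45.0 and 52.5 CPM in control (log2 fold change -2.19 ± 0.27, adjusted p = 9.02e-06). Usp18, which removes ISG15 and dampens interferon receptor signalling, had 71.7, 69.1 and 63.2 CPM in NC 24 h and 158, 148 and 163 CPM in control (log2 fold change -1.20 ± 0.16, adjusted p = 1.71e-05). Xaf1 had 7.85, 6.97 and 10.1 CPM in NC 24 h and 22.3, 23.9 and 23.7 CPM in control (log2 fold change -1.48 ± 0.20, adjusted p = 3.05e-05). Replicates of these 3 genes were close and the groups far apart.

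The remaining antiviral genes called lower included the mono-ADP-ribosyltransferase Parp14, with 143, 136 and 159 CPM in NC 24 h and 273, 270.5 and 259 CPM in control (log2 fold change -0.87 ± 0.13, adjusted p = 0.000143). Ifi27l2a had 59.5, 65.3 and 79.0 CPM in NC 24 h and 198, 139 and 139 CPM in control (log2 fold change -1.22 ± 0.18, adjusted p = 7.47e-05). The antiviral radical SAM enzyme Rsad2 (-1.11 ± 0.26) and the RNA sensor Dhx58 (-0.96 ± 0.22) fell too. Oas1g, Oas2, Oas3 and Oasl2 belong to a family of similar 2'-5' oligoadenylate synthetase genes, so their counts may share reads. In the JAK-STAT, SOCS and IRF list 3 of 19 rose and 2 fell (median -0.27), or 4 and 7 with the number as a block. The interferon signalling subunit Irf9 had 8.10, 8.28 and 11.4 CPM in NC 24 h and 16.9, 20.5 and 19.6 CPM in control (log2 fold change -1.03 ± 0.20, adjusted p = 0.00203), and its partner Stat2, whose promoter is shown above, was called (log2 fold change -0.94 ± 0.26, adjusted p = 0.0260) in 3 of the 6 fits without 1 library, with adjusted p up to 0.1003 without NC 24 h 2. Socs3, the feedback inhibitor of IL-6 family signalling, rose to 481, 302 and 494 CPM in NC 24 h, against 106, 64.7 and 84.5 CPM in control (log2 fold change 2.32 ± 0.25, adjusted p = 1.26e-06).

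No guanylate-binding protein or immunity-related GTPase of 5 was called (median -0.32), while 1 fell with the number as a block, with DESeq2 and without the libraries numbered 2. In antigen presentation 2 of 20 genes rose and 1 fell (median -0.07), or 2 and 3 with the number as a block. The T cell ligands Cd80, with 29.4, 47.1 and 38.7 CPM in NC 24 h and 10.6, 20.5 and 15.5 CPM in control (log2 fold change 1.299 ± 0.25, adjusted p = 0.00154), and Cd274, which encodes PD-L1, with 107, 109 and 109 CPM in NC 24 h and 68.0, 64.2 and 69.2 CPM in control (log2 fold change 0.69 ± 0.13, adjusted p = 0.00159), were the 2 that rose. On log2(TPM + 1) limma called no gene of 17 in this list, with adjusted p = 0.125 for Cd80 and 0.0942 for Cd274.

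Homeostatic microglia genes fell in 6 of 14 cases and none rose (median -0.94), in each of the 6 fits without 1 library, and 7 fell and 1 rose with the number as a block. In bulk samples fewer cells of a type and less RNA per cell cannot be told apart. Trem2, a lipid-sensing phagocytic receptor, had 70.7, 74.4 and 88.7 CPM in NC 24 h and 186, 127 and 161 CPM in control, and Mertk, which engulfs dying cells, had 12.2, 16.2 and 12.3 CPM in NC 24 h and 34.8, 28.2 and 21.6 CPM in control (log2 fold change -1.05 ± 0.22, adjusted p = 0.00353). The purinergic receptor P2ry13 had 2.53, 2.82 and 2.95 CPM in NC 24 h and 8.14, 7.59 and 5.51 CPM in control (log2 fold change -1.34 ± 0.33, adjusted p = 0.0129). Of the complement C1q chains, C1qb had 1.01, 0.941 and 2.03 CPM in NC 24 h and 8.35, 5.61 and 6.13 CPM in control (log2 fold change -2.28 ± 0.44, adjusted p = 0.00173), and C1qc had 0.507, 0.377 and 0 CPM in NC 24 h and 4.80, 1.32 and 3.06 CPM in control. The treated libraries were below all controls for these 5 genes.

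Disease-associated microglia genes fell in 5 of 21 cases and none rose (median -0.11), and 3 fell without the libraries numbered 2, while 7 fell and 1 rose with the number as a block. Beside Apoe, Trem2, Igf1 and Csf1, these were Lgals3, galectin 3, with 8.86, 6.03 and 11.8 CPM in NC 24 h and 22.5, 19.1 and 16.3 CPM in control (log2 fold change -1.12 ± 0.24, adjusted p = 0.00364). Alternative activation genes split, with 3 of 8 lower and 2 higher (median 0.38, but -0.37 on log2(TPM + 1)), and both increases, Tgfb1 (log2 fold change 0.95 ± 0.25, adjusted p = 0.0184) and Socs2 (log2 fold change 1.201 ± 0.33, adjusted p = 0.0268), were the least stable calls. Tgfb1 was called in 2 of the 6 fits without 1 library, with adjusted p up to 0.0950 without NC control 3, and Socs2 in 1 of the 6 fits without 1 library, with adjusted p up to 0.122 without NC 24 h 2.

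Among myeloid and stimulus-regulated transcription factors 5 of 29 fell and 2 rose (median -0.10), or 9 and 5 with the number as a block, and 1 rose without NC 24 h 1 or without NC control 2. Maf had 13.7, 22.2 and 25.6 CPM in NC 24 h and 59.5, 80.0 and 72.7 CPM in control (log2 fold change -1.78 ± 0.23, adjusted p = 2.02e-05). Bhlhe41 had 177, 172 and 176 CPM in NC 24 h and 352, 331 and 285 CPM in control (log2 fold change -0.88 ± 0.14, adjusted p = 0.000173), and Klf4 fell too (log2 fold change -1.24 ± 0.26, adjusted p = 0.00303). In these 3, the treated libraries were below the controls without overlap. Id3, an inhibitor of basic helix-loop-helix factors, rose to 23.6, 16.8 and 8.10 CPM in NC 24 h, against 3.34, 4.12 and 2.04 CPM in control (log2 fold change 2.31 ± 0.36, adjusted p = 0.000184), with library 3 the lowest of both groups.

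Phagocytic and scavenger receptors fell in 3 of 14 cases and rose in 2 (median -0.13), or 5 and 4 with the number as a block, and 1 rose without NC control 2. Msr1 (ENSMUSG00000025044, chromosome 8, 39581685 to 39642673, minus strand), the class A scavenger receptor, moved the other way from Trem2 and Mertk, with 190.2, 183 and 208 CPM in NC 24 h and 27.1, 35.6 and 32.1 CPM in control (log2 fold change 2.61 ± 0.16, adjusted p = 1.01e-10). Fc receptors and complement rose in 3 of 13 cases and fell in 2 (median 0.18), and 1 rose without NC control 3. Fcgr2b, the inhibitory Fc receptor, had 159, 192 and 194 CPM in NC 24 h and 60.5, 61.8 and 61.9 CPM in control (log2 fold change 1.56 ± 0.16, adjusted p = 5.33e-07), with control values that hardly differed. C3, the central complement protein, had 171, 150.1 and 192 CPM in NC 24 h and 108, 77.2 and 65.5 CPM in control (log2 fold change 1.03 ± 0.24, adjusted p = 0.00678), called in 5 of the 6 fits without 1 library, with adjusted p up to 0.0536 without NC control 3.

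Purinergic receptors and ectonucleotidases rose in 3 of 11 cases and fell in 2 (median -0.03), and 1 rose without NC control 3. Adora2b, a low-affinity adenosine receptor, had 71.9, 47.4 and 68.7 CPM in NC 24 h and 19.0, 15.998 and 25.5 CPM in control (log2 fold change 1.64 ± 0.21, adjusted p = 1.67e-05), while P2rx7, the ATP-gated channel, fell to 12.2, 9.41 and 12.9 CPM, against 26.3, 18.5 and 20.6 CPM in control (log2 fold change -0.92 ± 0.22, adjusted p = 0.00867). Integrins and adhesion molecules rose in 1 of 20 cases and fell in 2 (median 0.22), and 5 rose with the number as a block. Of all genes tested, 4.66% rose and 2.91% fell, so 1 increase in 20 is near the share of all genes. Itgb3, the beta 3 integrin chain, had 35.5, 24.5 and 30.6 CPM in NC 24 h and 8.35, 4.45 and 6.94 CPM in control (log2 fold change 2.203 ± 0.26, adjusted p = 5.68e-06).

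Secreted proteases and their inhibitors changed both ways. Of 14 matrix proteases and inhibitors 4 rose and 2 fell (median 0.39), or 7 and 3 with the number as a block. Mmp9, gelatinase B, which degrades basement membrane, had 55.0, 30.9 and 44.7 CPM in NC 24 h and 8.35, 8.91 and 7.35 CPM in control (log2 fold change 2.40 ± 0.27, adjusted p = 2.13e-06). Plaur, the urokinase receptor, had 33.2, 25.6 and 35.2 CPM in NC 24 h and 15.2, 17.6 and 20.0 CPM in control (log2 fold change 0.83 ± 0.19, adjusted p = 0.00728). The coagulation factors fell. F7 had 317, 259 and 260.0 CPM in NC 24 h and 653, 470.0 and 519 CPM in control (log2 fold change -0.97 ± 0.17, adjusted p = 0.000764), and F10 had 1.77, 2.64 and 4.60 CPM in NC 24 h and 16.9, 11.7 and 11.6 CPM in control (log2 fold change -2.12 ± 0.37, adjusted p = 0.000635).

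Serpins and other protease inhibitors rose in 4 of 9 cases and fell in 2 (median 0.36), but 2 rose without NC 24 h 3, without NC control 2 and without NC control 3, and 2 with only these 6 libraries fitted. Slpi, the secretory leukocyte protease inhibitor, had 3.29, 2.64 and 2.21 CPM in NC 24 h and 0.626, 0.495 and 0.613 CPM in control (log2 fold change 2.18 ± 0.51, adjusted p = 0.00775). Serpina3g had 27 counts in NC 24 h and none in control, at least 9.65-fold higher, and belongs to a cluster of similar genes that may share reads. Serpinb1a, an inhibitor of neutrophil proteases, had 121, 116 and 148 CPM in NC 24 h and 272, 233 and 275 CPM in control (log2 fold change -1.02 ± 0.19, adjusted p = 0.00120). In the acute-phase and alarmin list 1 of 13 rose, Lcn2, and 1 fell (median 0.25). The decrease was that of Hp, haptoglobin, which binds free hemoglobin, with 3.29, 4.52 and 5.52 CPM in NC 24 h and 10.2, 10.6 and 10.2 CPM in control (log2 fold change -1.20 ± 0.30, adjusted p = 0.0137), called in 5 of the 6 fits without 1 library, with adjusted p up to 0.0605 without NC 24 h 1.

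Actin cytoskeleton and motility genes rose in 6 of 24 cases and fell in 1 (median 0.39). With the number as a block 11 rose and 4 fell, and 2 rose without NC 24 h 3. Marcks, which links actin to the membrane, had 59.8, 86.8 and 107 CPM in NC 24 h and 17.3, 29.0 and 16.5 CPM in control (log2 fold change 2.004 ± 0.26, adjusted p = 2.08e-05), and Tpm1, a tropomyosin, had 101, 109 and 88.0 CPM in NC 24 h and 54.0, 56.1 and 53.7 CPM in control (log2 fold change 0.86 ± 0.15, adjusted p = 0.000502). Gsn, the actin-severing gelsolin, fell to 5.07, 4.71 and 2.95 CPM in NC 24 h, against 17.1, 16.7 and 10.2 CPM in control (log2 fold change -1.80 ± 0.27, adjusted p = 0.000122).

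Large decreases outside these lists included Mxd4, a MAX partner that opposes MYC, with 7.35, 7.34 and 6.26 CPM in NC 24 h and 57.2, 52.0 and 50.03 CPM in control (log2 fold change -2.92 ± 0.21, adjusted p = 2.45e-09). Cytip, which regulates adhesion in hematopoietic cells, had 10.4, 14.1 and 15.7 CPM in NC 24 h and 50.5, 67.9 and 60.9 CPM in control (log2 fold change -2.15 ± 0.24, adjusted p = 1.51e-06), and Gpr157, a G protein-coupled receptor, had 42.0, 19.4 and 32.4 CPM in NC 24 h and 143, 115 and 120.3 CPM in control (log2 fold change -2.02 ± 0.22, adjusted p = 1.04e-06). Replicates were tight for Mxd4 and wider for Gpr157, whose treated values lay below all controls, as the choice of the 15 largest decreases required. Sema4g (-3.43 ± 0.50), Selenbp1 (-2.56 ± 0.43), Ipcef1 (-2.51 ± 0.28), Asb10 (-2.66 ± 0.48) and Rcbtb2 (-1.94 ± 0.28) were further protein-coding members of the 15 largest decreases. Among noncoding ones were Gm14320 (-2.11 ± 0.30), Gm44914 (-2.02 ± 0.25) and Hectd2os (-2.06 ± 0.33), of whose exon bases 46.1% lie opposite Hectd2, so that without strand information their reads cannot be told apart.

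By CPM lost, the largest decrease was that of Ahnak, a giant scaffold protein, with 2826, 2958 and 3074 CPM in NC 24 h and 5660.5, 4893 and 4909 CPM in control (log2 fold change -0.80 ± 0.14, adjusted p = 0.000593). Ago2, the slicer of RNA interference, had 1678, 1461 and 1611 CPM in NC 24 h and 2895, 2523 and 2703 CPM in control (log2 fold change -0.77 ± 0.14, adjusted p = 0.000805). Both changes were under 2-fold, and no treated library reached a control. Cd93 (-0.55 ± 0.14), Serinc3 (-0.86 ± 0.16), Irf2bp2 (-1.03 ± 0.20) and the Wnt receptor Fzd7 (-0.70 ± 0.20) followed, and Fzd7 was called in 3 of the 6 fits without 1 library, with adjusted p up to 0.109 without NC 24 h 2. By CPM gained, Cpd, a membrane carboxypeptidase that can release arginine, had 2032, 2178 and 2688 CPM in NC 24 h and 484, 453 and 493 CPM in control (log2 fold change 2.27 ± 0.15, adjusted p = 5.91e-10).

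Cell division genes were near the control level. No gene of 25 in the mitosis list was called (median 0.04, but -0.09 on log2(TPM + 1)), and the proliferation marker Mki67 had 934, 1075 and 586 CPM in NC 24 h and 992, 846 and 528 CPM in control (log2 fold change 0.13 ± 0.24, adjusted p = 0.841). With the number as a block 2 rose and 2 fell. In DNA replication 3 of 27 rose (median 0.05, but -0.06 on log2(TPM + 1)), 6 with the number as a block, and 1 without NC 24 h 3. Ccne1, cyclin E1, had 65.1, 50.8 and 70.5 CPM in NC 24 h and 39.2, 28.4 and 28.4 CPM in control (log2 fold change 0.96 ± 0.18, adjusted p = 0.00124). Ribosomal protein genes had no call among 24 (median -0.05), or 2 lower with the number as a block.

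None of 19 necroptosis and death-receptor genes was called (median -0.04), while 2 rose and 1 fell with the number as a block and 1 rose with DESeq2. Ripk1, the kinase that starts necroptosis, had 125, 175 and 222 counts in NC 24 h and 156, 201 and 171 in control. Its partner Ripk3 had 1 count over NC 24 h and 0 over control, and Zbp1, an upstream sensor, likewise 1 and 0. The pore-forming effector Mlkl had 39 counts over NC 24 h and 27 over control. Mlkl was not called (log2 fold change 0.63 ± 0.47, adjusted p = 0.520), and the counts of Ripk3, Zbp1 and Bak1 were too few for a change to be detectable.

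In the Bcl2 family and apoptosome list 2 of 19 rose and 1 fell (median -0.03), or 5 and 1 with the number as a block. The survival gene Bcl2a1d, 1 of several near-identical copies, had 64.3, 76.6 and 93.4 CPM in NC 24 h and 31.9, 32.5 and 38.2 CPM in control (log2 fold change 1.19 ± 0.20, adjusted p = 0.000317). Bmf, a BH3-only death gene, fell (log2 fold change -1.0004 ± 0.27, adjusted p = 0.0200), called in 3 of the 6 fits without 1 library, with adjusted p up to 0.0838 without NC 24 h 3. Il1b was the 1 called gene of 15 in the inflammasome list (median 0.04, but -0.06 on log2(TPM + 1)), and 4 fell with the number as a block. Nlrp3, the sensor of that complex, averaged 1.99 CPM in NC 24 h and 1.24 CPM in control (log2 fold change 0.64 ± 0.66, adjusted p = 0.683). The 4 called ferroptosis regulators of 17 were Ptgs2, Slc7a11, Tfrc and Fth1, all described above (median 0.02, but -0.12 on log2(TPM + 1)), 2 were called without NC 24 h 3 or without NC control 2, and 1 fell with the number as a block.

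Of 28 lysosomal hydrolases and proton pump subunits 2 fell and 1 rose (median -0.15), or 8 and 4 with the number as a block. Of all genes tested, 2.91% fell and 4.66% rose, so the main counts of this list are near those shares. Tfeb, the regulator of lysosome genes, had 10.4, 6.97 and 7.18 CPM in NC 24 h and 29.6, 17.5 and 17.6 CPM in control (log2 fold change -1.41 ± 0.28, adjusted p = 0.00221), and Ctsa, cathepsin A, fell too (log2 fold change -1.07 ± 0.22, adjusted p = 0.00309). No autophagy gene of 15 was called (median -0.08), while 2 rose and 1 fell with the number as a block. In the circadian list 2 of 15 fell and 1 rose (median -0.38), or 5 and 2 with the number as a block, and beside Bhlhe41 the second was Per2 (log2 fold change -0.86 ± 0.24, adjusted p = 0.0258), called in 1 of the 6 fits without 1 library, with adjusted p up to 0.0734 without NC 24 h 3.

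The level at 24 h was next set against that at 12 h in the same line. Here 441 genes were called, 2.76% of those tested, with 261 higher (1.63%) and 180 lower (1.13%) at 24 h. With the number as a block 1841 were called, and 263 with only these 2 groups fitted. Leaving out 1 library gave 195 calls without NC 12 h 3, 209 without NC 12 h 1, 231 without NC 24 h 2 and 287 without NC 24 h 3. This comparison shares the NC 24 h libraries with the one against control, so their values are given side by side and not as support for each other. Of the 745 genes above control, 22 were also above 12 h and 31 were below it. Of the 466 below control, 35 were also below 12 h and 14 were above it.

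Several inflammatory genes stood above control at 24 h but below 12 h. Csf3 had 2.30, 3.63 and 1.23 CPM in control, 3083, 1687 and 2719 CPM at 12 h and 1427, 763 and 845 CPM at 24 h (24 h over 12 h, -1.30 ± 0.28, adjusted p = 0.0127). Tnfrsf1b had 598, 449 and 466 CPM in control, 2869.7, 2153 and 2849 CPM at 12 h and 1114, 959.7 and 1177 CPM at 24 h (-1.28 ± 0.18, adjusted p = 0.000155). Acod1 had 432, 324 and 366 CPM in control, 7403, 5440.1 and 7159 CPM at 12 h and 3385, 3214 and 4214 CPM at 24 h (-0.89 ± 0.18, adjusted p = 0.00574). For all 3, no 24 h library reached a 12 h library. Mmp13, a collagenase, was most of the way back to control but still above it. It had 1.67, 4.29 and 3.27 CPM in control, 98.2, 113 and 122 CPM at 12 h and 6.59, 8.47 and 8.84 CPM at 24 h. Its change of 24 h over control was called (log2 fold change 1.35, adjusted p = 0.00211). In contrast Ccl7, Ccl3, Nfkbia, Hmox1 and Slc7a11 were not called between 12 h and 24 h (adjusted p = 0.146, 0.905, 0.734, 0.931 and 0.774).

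Many antiviral genes were lower at 24 h than at 12 h. Of 33 tested, 25 were called lower at 24 h than at 12 h and none higher, against 1.13% lower and 1.63% higher among all genes tested. Cmpk2 had 60.1, 45.0 and 52.5 CPM in control, 52.9, 32.2 and 52.3 CPM at 12 h and 14.2, 8.47 and 11.97 CPM at 24 h (-1.99 ± 0.27, adjusted p = 0.000139), and Usp18 had 158, 148 and 163 CPM in control, 170.4, 142 and 192 CPM at 12 h and 71.7, 69.1 and 63.2 CPM at 24 h (-1.31 ± 0.16, adjusted p = 2.85e-05). Their 12 h values lay near or within the control range, and the 24 h libraries were the low ones. Haptoglobin was above control at 12 h and below it at 24 h, with Hp at 10.2, 10.6 and 10.2 CPM in control, 19.6, 18.7 and 25.6 CPM at 12 h and 3.29, 4.52 and 5.52 CPM at 24 h (-2.24 ± 0.29, adjusted p = 9.83e-05). The transcript Gm43068 was also lower at 24 h than at 12 h (-2.41 ± 0.34, adjusted p = 0.000192).

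Other genes lay higher at 24 h than at 12 h. Cxcr3 had 3.96, 3.30 and 3.27 CPM in control, 7.20, 4.31 and 6.14 CPM at 12 h and 14.9, 9.79 and 13.6 CPM at 24 h (1.12 ± 0.28, adjusted p = 0.0292). Rmi2, which helps resolve DNA junctions, had 11.9, 11.7 and 9.39 CPM in control, 7.65, 8.44 and 11.1 CPM at 12 h and 23.8, 18.6 and 27.4 CPM at 24 h (1.36 ± 0.23, adjusted p = 0.00122), and Gchfr, which regulates tetrahydrobiopterin synthesis, was likewise above both (1.37 ± 0.29, adjusted p = 0.00950). Fbxo48 rose over both as well (1.83 ± 0.26, adjusted p = 0.000194), although its call against control held in 2 of the 6 fits without 1 library, with adjusted p up to 0.146 without NC control 3.

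Some genes were partly back toward control at 24 h. Deptor, an inhibitor of mTOR, had 99.95, 117 and 129.9 CPM in control, 22.96, 17.8 and 20.0 CPM at 12 h and 52.4, 76.1 and 75.3 CPM at 24 h (1.75 ± 0.18, adjusted p = 4.10e-06). Abcd2, a peroxisomal fatty acid transporter, had 101, 119.6 and 108 CPM in control, 12.6, 11.9 and 11.7 CPM at 12 h and 28.6, 33.7 and 37.6 CPM at 24 h (1.47 ± 0.19, adjusted p = 8.42e-05). H2ac10, 1 of many similar histone genes, showed the same order (1.29 ± 0.19, adjusted p = 0.000334). Mitosis genes were called higher than at 12 h in 14 of 25 cases, replication genes in 8 of 27 and genes of the mitochondrial genome in 8 of 9, where nuclear copies could share reads, while ER chaperones and related genes were lower in 7 of 22. Among all genes tested, 1.63% were called higher and 1.13% lower than at 12 h. List counts against 12 h were not repeated under the other fits. Kif11, a mitotic motor, had 189.9, 234 and 200.3 CPM in control, 88.5, 105 and 97.1 CPM at 12 h and 195, 199.8 and 236 CPM at 24 h (1.12 ± 0.15, adjusted p = 0.000124).

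**Figure D4:**
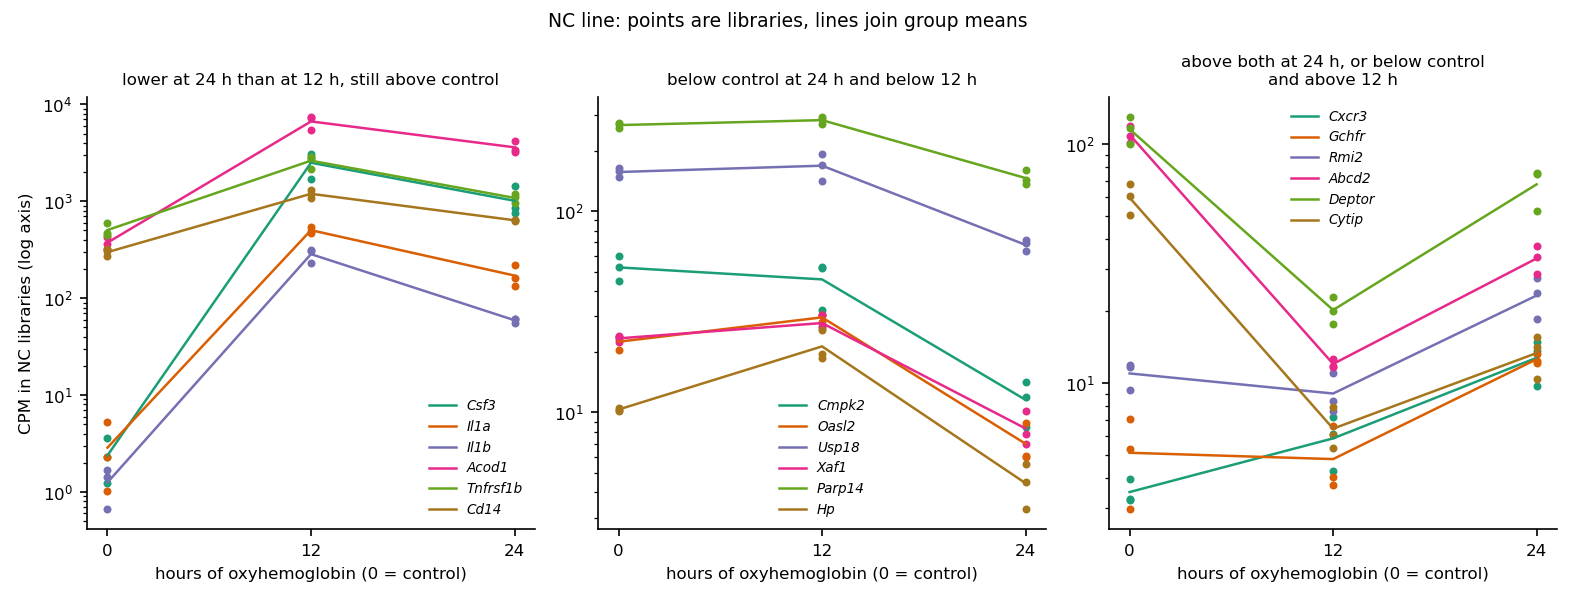
CPM (log axis) in the NC libraries at control (0 h), 12 h and 24 h of oxyhemoglobin, with points for libraries and lines through group means. In the left panel the 24 h means lie between control and 12 h, in the middle panel they lie below both, and in the right panel Cxcr3, Gchfr and Rmi2 lie above both while Abcd2, Deptor and Cytip lie between.

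The same treatment and time was also sampled in the line labelled BAK1-KD, with its own controls, so that the 2 comparisons share no library. Same-numbered libraries of the 2 lines nevertheless deviated together across genes, so the 2 comparisons may not be independent. The correlations were 0.273, 0.444 and 0.0703 between the controls, and 0.166, 0.372 and 0.0946 between the 24 h libraries. Because Bak1 had few counts, the label of that line could not be checked here. There 1534 genes were called (9.59%), 880 higher (5.5%) and 654 lower (4.09%). Of the 745 genes that rose in NC, 492 rose in the KD-labelled line, which is 66% of the NC list and 55.9% of the KD list. Of the 466 that fell in NC, 300 fell there, 64.4% and 45.9% of the lists. Any size counted, 1182 of the 1211 NC calls had the same sign in the KD-labelled line and 29 the opposite sign. The share of equal signs over all genes tested was not counted, so this count has no background beside it.

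The difference between the lines in the 24 h change was tested directly as an interaction. At an adjusted p under 0.05, 5 genes were called (0.0313%), 4 with a higher value in the KD-labelled line (0.025%) and 1 with a lower one (0.00625%), against 740 at an unadjusted p under 0.05. DESeq2 called 38, and with the number as a block 193 were called, so the count depends on the fit. Without 1 library of these 4 groups the count was 2 to 10, and 1 without the libraries numbered 2. Trib3 moved in opposite directions and was the 1 gene called in both lines with opposite signs. It had 183, 135 and 175 CPM in KD 24 h and 78.1, 52.9 and 86.1 CPM in KD control (1.18 ± 0.24), while in NC it fell as given above, a difference of 1.99 ± 0.34 (KD minus NC, adjusted p = 0.0252). Aldh1l2, a mitochondrial folate enzyme, had 60.8, 52.7 and 59.3 CPM in KD 24 h and 29.7, 20.7 and 19.8 CPM in KD control, against 59.8, 59.1 and 63.7 CPM in NC 24 h and 80.5, 87.9 and 84.3 CPM in NC control (difference 1.77 ± 0.24, adjusted p = 0.00173). Serpinb1a fell in both lines and more in the KD-labelled one, with 12.96, 11.1 and 10.96 CPM in KD 24 h and 63.2, 68.5 and 108 CPM in KD control (difference -1.75 ± 0.29, adjusted p = 0.0186). Plau, urokinase, was not called in NC, with 294, 287 and 296 CPM in NC 24 h and 253, 235 and 239.5 CPM in NC control, and had 360.1, 281 and 318 CPM in KD 24 h and 113, 110.4 and 139 CPM in KD control (difference 1.13 ± 0.21, adjusted p = 0.0447). The fifth gene, AC147806.2, had 7.71, 12.6 and 11.2 CPM in KD 24 h and no count in KD control, against 18.5, 19.2 and 17.9 CPM in NC 24 h and 3.13, 3.13 and 3.06 CPM in NC control, and its fitted difference depends on the prior count. Aldh1l2 and AC147806.2 were called in all 12 fits without 1 library, Serpinb1a in 7, and Trib3 and Plau in 4 each.

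ATF4 targets and tRNA synthetases, of which none rose in NC, had 10 of 27 higher and 1 lower in the KD-labelled line, and Trib3 was the 1 member called in the test of the difference. Homeostatic microglia genes fell in 8 of 14 cases there and antiviral genes in 21 of 33, with no member of either list called for a difference between the lines.

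**Figure D5:**
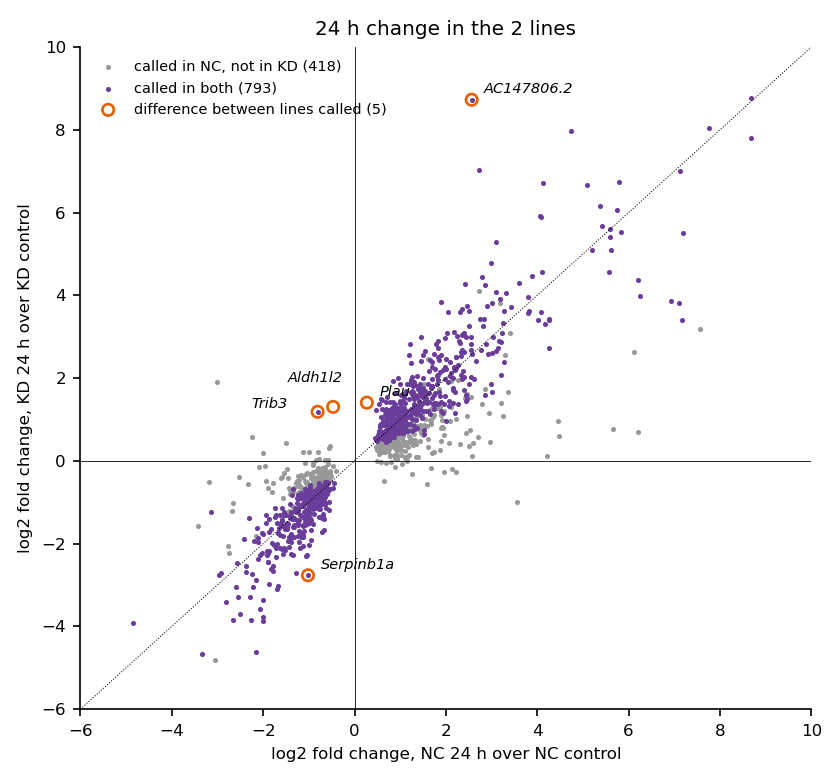
Log2 fold change after 24 h in the NC line (horizontal axis) against that in the KD-labelled line (vertical axis) for the 1211 genes called in NC and the 5 genes called for a difference between the lines, which are circled and named. The dotted line marks equal change. Trib3 and Aldh1l2 lie left of 0 and above it, Serpinb1a lies below the dotted line, and most points lie in the upper right and lower left.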

How the data were processed

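Whether counting used strand is not stated. Per the labels' protocols, total RNA went into tagmentation libraries. Per the submitters' processing notes, bcl2fastq, HISAT2 2.2.0, featureCounts, DESeq2 and the GRCm38 genome were used. The authors deposited whole-number counts per gene and, beside them, TPM values, which a recomputation from the counts matched within 4.89e-05.

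Groups were taken from the labels. Counts of 15996 genes that passed a minimum count of 10 (99.6% of all counts) were fitted with edgeR 4.0.16 (R 4.3.3) over all 18 libraries, with TMM factors and the quasi-likelihood test, for NC 24 h against NC control, NC 24 h against NC 12 h and the difference between the lines. Alternatives used DESeq2 1.42.0, limma 3.58.1 on log2(TPM + 1) and log2(TPM + 0.1), other filters and scalings, single libraries left out and the replicate number as a block. Leaving out the 6 libraries numbered 2 was chosen after seeing the data. Same-numbered NC 24 h and NC control libraries deviated together across genes (correlations of 0.228, 0.388 and 0.108), so the numbers may pair these samples, on the data alone. The main fit has no block, so its changes, standard errors and adjusted p ignore any such pairing. Only the alternative with the number as a block takes it into account. The procedure was tested on simulated data whose libraries were drawn independently, with no effect of the replicate number. That test therefore does not cover any pairing of same-numbered libraries. Depths of 4361313 to 6008810 counts limit the precision for genes with few counts; intervals and floors of 3 counts cover counting error only.

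Named genes were the 15 largest changes in each direction among called genes without overlap and with at least 10 CPM, the 8 largest differences of CPM in each direction, up to 5 members of each of 60 lists by adjusted p, the 6 largest changes in each direction also called against 12 h or between lines, and Bak1, necroptosis and globin genes. Other genes named in the text were chosen after their values were seen. Some items that these rules name are not reported here. The comparison, lists and rules were chosen with earlier results of these data known. Motif letters were also set after the data were seen. Positions are from GENCODE release 21 (mouse, GRCm38), which held 55227 of the 55487 identifiers. Figures were drawn with matplotlib 3.10.9 in Python 3.11.15.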

Additional observations from a re-analysis of the deposited data

Results flagged for a closer look

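Of the 24 h changes, 5 differed between the lines by the interaction term of the edgeR fit, with values given as the change in the KD-labelled line minus that in the NC line on the log2 scale. The difference was 1.77 for Aldh1l2 (adjusted p = 0.00173), which rose in the KD-labelled line and was not called in NC. It was 1.99 for Trib3 (adjusted p = 0.0252), which rose in the KD-labelled line and fell in NC, and 1.13 for Plau (adjusted p = 0.0447), which rose in the KD-labelled line and was not called in NC. The value was -1.75 for Serpinb1a (adjusted p = 0.0186), which fell in both lines. For AC147806.2 it was 6.16 (adjusted p = 0.00173), a fitted value that depends on the prior count because the KD control libraries had no count. In control cells the lines already differed in level for these genes, with Trib3 at 78.1, 52.9 and 86.1 CPM in KD control and 507, 352 and 469 CPM in NC control, and the part of that difference in the result was not tested.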

How the results depend on the processing

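The 24 h comparison gave 1211 calls, and 1449 with DESeq2, 1220 with RLE factors, 1279 without a low-count filter and 1250 with a filter of 5 CPM. The replicate block gave 3023 calls, 1696 higher and 1327 lower. With the compared groups only there were 748, 462 higher and 286 lower, and without the 6 libraries numbered 2 there were 802, 482 higher. Limma called 365 genes higher on log2(TPM + 1) and on log2(TPM + 0.1) with a filter, and 369 without one. Without 1 library of the 6, calls ranged from 838 to 1062, with 488 to 646 higher and 331 to 423 lower, and 781 to 929 of them were among the 1211. The comparison with 12 h gave 1841 calls with the block, 263 with the compared groups only, 276 without the libraries numbered 2, and 195 to 364 without 1 library. The difference between lines gave 193 calls with the block, 38 with DESeq2, 33 without a filter, 8 with the 5 CPM filter, 13, 10 and 25 with limma, 1 without the libraries numbered 2, and 2 to 10 without 1 library. The causes were not tested. Among the 205 named genes called in the main fit, no alternative reversed a direction. The alternatives counted were the filters, scalings, DESeq2, the block, the compared groups only and the fits without 1 library. Reversals were not counted for named genes not called in the main fit. Over all 292 named genes, 3234 values kept their side of the threshold, 172 lost the call and 78 gained it. On log2(TPM + 1), 158 of the 197 called named genes that could be fitted passed the threshold, and the fit without the libraries numbered 2 was not counted gene by gene. The block ended no call of a named gene and added 44. Of the list counts under alternatives, 1360 stayed within 1.5 times and 200 did not. The 1360 include counts that were 0 in both fits, and the block alone moved 54 of the 120 list counts.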
